A study of Mus musculus with 2 samples.

Results

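The replication-independent histone variants on these arrays were 8 genes: H3f3a and H3f3b, which encode H3.3, H2afz and H2afv, which encode H2A.Z, H2afx, which encodes H2A.X, H2afy and H2afy2, which encode macroH2A, and H1f0, which encodes the linker histone H1.0. They were chosen by name, by taking every gene probe that carried 1 of these 8 names on both arrays, whatever its value. They are 8 of 34844 distinct gene names on the array and had 15 of its 55681 gene probes. A probe was tested when each array showed it well above background for at least 1 of the 2 samples, which 22266 probes did, among them all 15 of the variants. Current names of some of these genes differ, with H2az1 for H2afz, H2az2 for H2afv, Macroh2a1 for H2afy and Macroh2a2 for H2afy2.

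The samples were RNA from hand-picked pancreatic islets of 2 kinds of mice. RbΔK7 mutant islets carried a knock-in form of the retinoblastoma protein Rb that resists phosphorylation, and control islets came from mice described only as controls. Each of 2 Agilent arrays held 1 mutant sample (Cy5, red) and 1 control sample (Cy3, green), so there were 2 mutant and 2 control samples, harvested independently. No array had the dyes exchanged, so dye and genotype cannot be told apart, and age, sex, strain, number of animals per sample and the cells in which the mutant protein is made are not given in the labels.

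Most histone protein is made in S phase, from clustered genes whose mRNAs end in a stem-loop without a poly(A) tail. The variants described here are made outside S phase as well, from mRNAs that are mostly polyadenylated, and are placed into chromatin by their own chaperones at active genes, regulatory elements, damaged DNA or silent regions. Rb holds the E2F transcription factors in check until cyclin-dependent kinases phosphorylate it, and E2F targets include many genes of DNA replication. The comparison asks how the variant genes stood in islets whose Rb resists that phosphorylation.

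None of the 15 variant probes passed the threshold (limma, adjusted p under 0.05), against 0.382% of all tested probes. At an unadjusted p under 0.05 there were 2 of 15, against a background of 11.4%. On both arrays 6 of the 15 were higher in mutant islets (background 32.3%), 3 were lower (background 25.3%), and 6 had opposite signs on the arrays. Both mutant levels lay above both control levels at 4 probes (background 21.9%) and below them at 1 probe (background 15.6%). The counts of this paragraph include 2 dim probes that the filter kept through the channel where they were higher. H1f0 was kept through the mutant channel alone, and H3f3b A_52_P217875, on 1 array, through the control channel alone. With both channels required 13 probes remained, 1 of them at an unadjusted p under 0.05 (all probes 2010 of 18678). Adjusted p-values ran between 0.252 and 0.995 over the 15 probes. The 95% intervals of the mean ratio included 0 at 13 probes, and none of the 15 included a 2-fold change in either direction. Put as folds of mutant over control, the lowest bound of any interval was 0.516 and the highest was 1.57. These bounds hold for the offset of 50 in the background correction, which draws dim probes towards 0. With the software's processed signals the dim H1f0 probe had a mean log2 ratio of 1.10 and the dim H3f3b probe A_52_P217875 had -1.35, both past 2-fold, and neither was called. The median log2 ratio of the 15 probes was 0.07 on the first array (replicate 1) and 0.08 on the second (replicate 2), beside 0.02 and 0.02 for all tested probes.

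**Figure D1:**
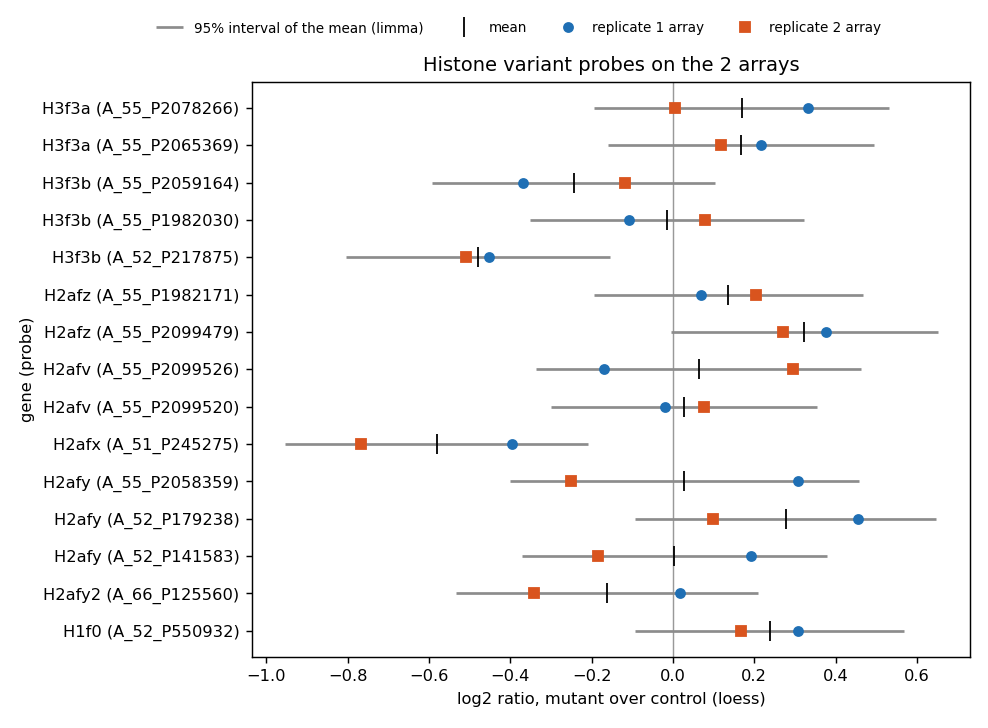
Log2 ratio of mutant over control (horizontal axis) for each of the 15 histone variant probes (rows) after loess normalization, with circles for the replicate 1 array, squares for the replicate 2 array, ticks for the mean and bars for limma's 95% interval. The bars of the H2afx probe and of 1 H3f3b probe lie wholly below 0, and the other 13 cross 0.

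Levels below are log2 channel intensities after loess and quantile normalization between arrays. A ratio is the log2 of mutant over control within 1 array, so a ratio of 1 would be a 2-fold higher level in the mutant. Probes of 1 gene share a target and are not replicates, so all are given. Probe positions are those of the array design on mm9, and the place in the transcript counts from its first base. A second normalization moves many signs: when each array was centred on its median over all probes in place of loess, the tested probes had medians of 0.39 and 0.84, and such values are given here relative to those medians. Without that allowance 7 of the 15 variant probes passed the threshold under median centring, all higher in the mutant (background 29.9% higher and 0.319% lower). With the tested probes then centred at 0, a setting added after the data were seen, 1 of 15 passed, the H3f3b probe A_52_P217875, lower in the mutant (background 2.63% higher and 0.885% lower). In whole islets, fewer cells of a type and less RNA per cell cannot be told apart.

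Before the members, the samples' cell type markers need stating, since they differed between arrays. Insulin genes mark beta cells, and the summed level of 8 beta cell markers was 18.65 and 19.36 in the mutant samples, against 18.96 and 18.37 in the controls. Ins1 had ratios of -0.15 and 1.25, and Ins2 had -0.57 and 0.71. The summed level of 10 markers of acinar cells, the enzyme-making cells that surround islets, was 20.16 and 16.41 in the mutant samples and 19.66 and 20.91 in the controls. All 8 beta and all 10 acinar markers had opposite signs on the arrays, and the replicate 2 mutant sample was the one low in acinar RNA, with a Cpa1 ratio of -4.04 on that array and 0.35 on the other. Stromal markers were higher in the mutant on both arrays at 8 of 8 genes, of which 5 rose (limma, adjusted p under 0.05, calls that 6 of the other settings tried did not make), with summed levels of 13.39 and 14.89 in mutant samples, against 10.92 and 13.06 in controls. Endothelial markers were higher on both arrays at 4 of 5 genes, with 1, Vwf, past the threshold. Kdr was lower on both, at -0.28 and -0.88. The summed endothelial level was 12.63 and 12.44 in mutant samples, against 12.73 and 12.68 in controls. Second tested probes had means of 0.24 for Vwf and 0.37 for Kdr. Duct markers were higher on both arrays at 4 of 6, with 1 past the threshold. Markers of the other endocrine cells were higher on both at 6 of 7 and leukocyte markers at 2 of 5, none called. Among all tested genes 33.1% were higher and 25.1% lower on both arrays, and 0.45% were called. Ptprc, the pan-leukocyte marker, was not well above background in either channel on either array. The part of these cell types in the ratios of the histone genes was not tested.

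H3f3a and H3f3b encode the same H3.3 protein from 2 chromosomes, and after loess the mean ratios were positive at both H3f3a probes and negative at all 3 H3f3b probes. The difference was not tested, and with the tested probes centred 2 of the 3 H3f3b probes were positive, at 0.047 and 0.19. Stretches of 30 bases from their probes follow, to show where the genes of 1 protein differ in sequence, with the AATAAA hexamer of polyadenylation signals in capitals where a stretch holds it.
H3f3a, probe A_55_P2065369, mm9 chr1:182732757-182732816, minus strand: gattccatccgttcactgtacttttctaac
H3f3b, probe A_55_P1982030, mm9 chr11:115883275-115883305, minus strand, with 31 bases of the probe placed: gtttcctttaaaAATAAAaagtaaacctgg
H3f3b, probe A_52_P217875, mm9 chr11:115883470-115883529, minus strand: gcttggtagaaaaggctaaagtacagaaag

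The H3f3a probe that starts at base 958 had levels of 11.58 and 11.66 in mutant islets, against 11.36 and 11.54 in control islets. Its mutant samples were the 2 highest, and the groups did not overlap. The ratios were 0.22 and 0.12 and averaged 0.17 ± 0.070 (SD, n = 2; limma adjusted p = 0.707). At base 507, probe A_55_P2078266 (mm9 chr1:182733208-182733267, minus strand) had 10.90 and 10.92 in mutant islets and 10.57 and 10.92 in control islets. Here 1 control sample stood below the other 3, which lay together. Ratios of 0.33 and 0.01 averaged 0.17 ± 0.23 (SD, n = 2; limma adjusted p = 0.741). The 2 H3f3a probes differed in mean by 0.0017, though the array ratios behind these means were unlike. Both probes were positive on both arrays after loess. In the authors' deposited table the replicate 2 log2 ratio of the probe at base 507 was -0.06. The probe at base 507 also lists the transcript of Gm12657, whose signal it cannot tell from that of H3f3a.

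At H3f3b the 3 probes had mean ratios spread over 0.47, the widest among the genes with several probes. The dimmest, at base 1738, had levels of 6.86 and 6.18 in the mutant, against 7.32 and 6.69 in the control. Each mutant sample lay below the control of its own array, but the array difference was larger, so the groups overlapped. Ratios of -0.45 and -0.51 gave a mean of -0.48 ± 0.041 (SD, n = 2), with a 95% interval of -0.81 to -0.16, an unadjusted p of 0.011 and a limma adjusted p of 0.272. The mutant channel was well above background on 1 of the 2 arrays at this probe, with mean raw signals of 112 and 85.6 in the mutant and 83.8 and 55.9 in the control. In the authors' deposited table its log2 ratios were -1.02 and -1.67 on the 2 arrays, with p-values of 0.000173 and 0.000345 that cover technical error within 1 array.

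The brighter H3f3b probes lay closer to 0. Probe A_55_P2059164, at base 667, had 11.44 and 10.97 in mutant islets and 11.81 and 11.09 in control islets, with ratios of -0.37 and -0.12 averaging -0.24 ± 0.18 (SD, n = 2; limma adjusted p = 0.596). The probe at base 966, shown above, had 9.59 and 9.19 in mutant islets and 9.70 and 9.11 in control islets, with ratios of -0.11 and 0.08 averaging -0.01 ± 0.13 (SD, n = 2; limma adjusted p = 0.983). Its sign changed between arrays, and the groups overlapped at both of these probes. Relative to the medians under median centring, the probes at bases 667 and 966 had ratios of -0.09 and 0.19, and of 0.06 and 0.31, while the dim probe kept -0.60 and -1.16. The placed coordinates and the transcript positions put the H3f3b probes in different orders, so which end of the transcript each one reads was left unstated.

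The 2 H3.3 promoters are printed because they serve 2 genes of 1 protein. Each window runs from 250 bases before to 50 bases after the RefSeq start on GRCm38.p6, and capitals mark CCAAT or, on the other strand, ATTGG, the word bound by the factor NF-Y.
H3f3a, GRCm38.p6 chr1:180813556-180813855, minus strand: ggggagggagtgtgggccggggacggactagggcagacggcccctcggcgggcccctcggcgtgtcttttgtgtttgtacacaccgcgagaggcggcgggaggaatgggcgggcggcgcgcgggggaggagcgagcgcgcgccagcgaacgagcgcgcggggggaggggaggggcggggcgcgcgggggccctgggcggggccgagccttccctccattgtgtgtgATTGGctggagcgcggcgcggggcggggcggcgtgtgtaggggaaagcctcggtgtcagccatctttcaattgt
H3f3b, GRCm38.p6 chr11:116024455-116024754, minus strand: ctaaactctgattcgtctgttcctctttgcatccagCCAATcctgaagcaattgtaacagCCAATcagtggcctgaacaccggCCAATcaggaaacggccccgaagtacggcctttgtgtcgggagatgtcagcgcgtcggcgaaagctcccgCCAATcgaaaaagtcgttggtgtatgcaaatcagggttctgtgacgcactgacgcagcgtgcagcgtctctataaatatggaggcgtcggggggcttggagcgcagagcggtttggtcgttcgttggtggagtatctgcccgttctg

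The H3f3a window held 1 CCAAT word, 4 GC boxes (GGGCGG) and no TATAAA, and the H3f3b window held 4 CCAAT words, 1 TATAAA and no GC box. Words were counted on both strands, and a match that overlapped the one before it was not counted, as happens among the GC boxes of H3f3a. Of the 8 genes, 7 had a promoter in the RefSeq table, which lists none for H2afx. CCAAT was found in 5 of the 7, against 37.4% of 32851 mouse promoters of the same length. It occurred 3 times at H2afz and 4 times at H2afv, and was not found at H2afy or H1f0. The 4 E2F-type words searched, TTTCCCGC, TTTCGCGC, TTTGCCGC and TTTGGCGC, were in 0 of the 7 windows and in 2.26% of all promoters. The cell cycle homology word TTTGAA was in 1 of 7 (all promoters 17.9%), GGGCGG in 5 of 7 (35.7%) and TATAAA in 1 of 7 (13.6%). These are counts of letters and say nothing of which factor binds.

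H2afz, the main gene of the essential variant H2A.Z that flanks active promoters, had the highest mean ratio of the 15 probes at 1 of its 2 probes under loess with an offset of 50. With an offset of 0 the dim probes of H1f0, at 0.55, and H2afy (A_52_P179238), at 0.54, stood above it, at 0.32. The probes are shown because they lie close together in 1 transcript and gave means that differed by 0.19.
H2afz, probe A_55_P1982171, mm9 chr3:137529723-137529782, plus strand: ggtggataagctcAATAAAggtcatatccc
H2afz, probe A_55_P2099479, mm9 chr3:137529827-137529886, plus strand: ctcactcagcaacaagtacattctctgctt

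At base 897, past the AATAAA of the first probe, A_55_P2099479 had levels of 11.18 and 11.11 in mutant islets, against 10.80 and 10.84 in control islets. The mutant samples were both above both controls, and the gap between the groups was larger than the spread within either. Its ratios of 0.38 and 0.27 gave a mean of 0.32 ± 0.075 (SD, n = 2), a 1.25-fold difference, with a 95% interval of -0.005 to 0.65 and a limma adjusted p of 0.447. At base 793, A_55_P1982171 had 12.41 and 12.70 in mutant islets, against 12.34 and 12.49 in control islets. Each mutant sample was above the control of its array, though the groups overlapped. Ratios of 0.07 and 0.20 averaged 0.14 ± 0.095 (SD, n = 2; limma adjusted p = 0.773). With median centring in place of loess both stayed positive relative to the array medians, at 0.62 and 0.58 for the probe at base 897 and 0.39 and 0.52 for the probe at base 793.

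H2afv encodes a second H2A.Z protein, nearly the same as the first. Probe A_55_P2099526, at base 651 (mm9 chr11:6328154-6328213, minus strand), had 10.65 and 11.09 in mutant islets and 10.82 and 10.79 in control islets. The mutant samples lay on either side of the controls, and the ratios of -0.17 and 0.30 averaged 0.06 ± 0.33 (SD, n = 2; limma adjusted p = 0.932). Probe A_55_P2099520, at base 1576 (mm9 chr11:6327229-6327288, minus strand), had 7.01 and 6.99 in mutant islets and 7.03 and 6.91 in control islets. All 4 samples lay within a narrow range, and the mean ratio was 0.03 ± 0.069 (SD, n = 2; limma adjusted p = 0.964). Of the 2 H2A.Z genes, then, H2afz was positive at both probes on both arrays and H2afv was not. Neither was called, and the difference between them was not tested.

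**Figure D2:**
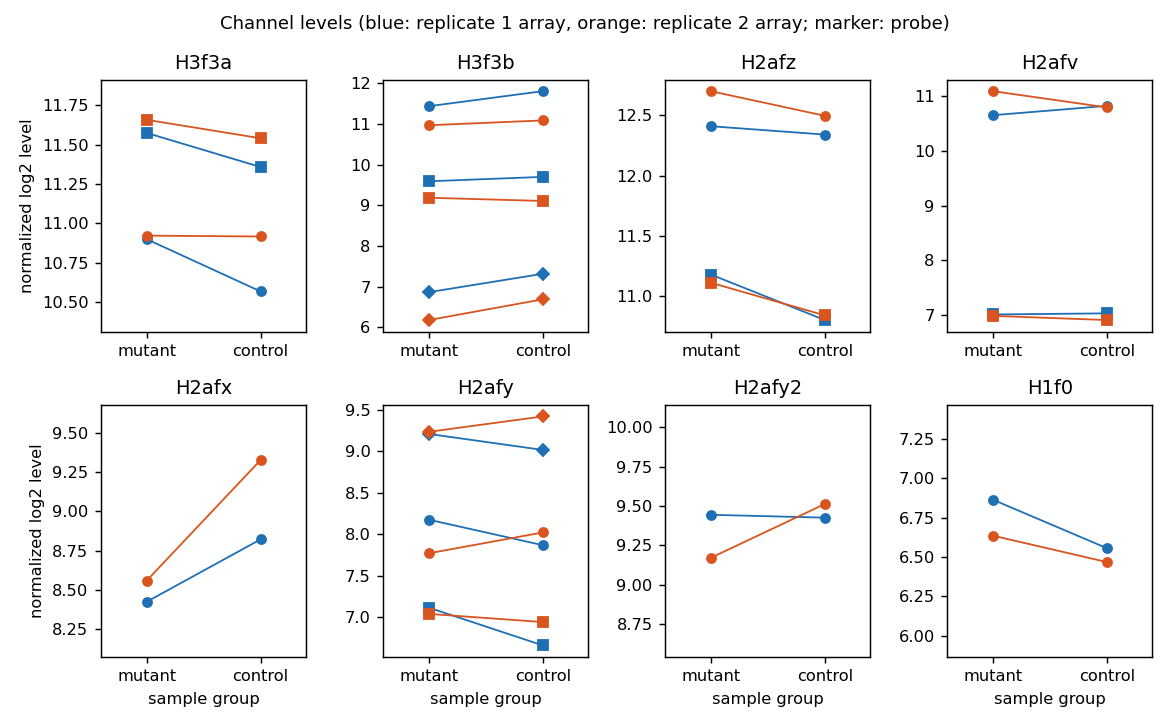
Normalized log2 channel level (vertical axis, with its own range in each panel) in mutant and control islets for the 8 genes; each line joins the 2 samples of 1 array (blue, replicate 1; orange, replicate 2) at 1 probe, and markers tell the probes of a gene apart. Both lines fall to the right, from mutant to control, at both H2afz probes, and rise at the H2afx probe, where the controls lie at 8.82 and 9.33.

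H2afx encodes H2A.X, whose tail is phosphorylated around DNA breaks. Its mRNA has a form that ends in a stem-loop, like those of the S-phase histones, and a longer polyadenylated form, and which of them the probe reads was not tested. The stretch printed is from the single probe, at base 1235 of the transcript, because it gave the lowest mean ratio of the 15 under loess with an offset of 50. The dim H3f3b probe A_52_P217875 was lower than H2afx with an offset of 0, at -0.97 against -0.70, and with processed signals, at -1.35 against -0.74.
H2afx, probe A_51_P245275, mm9 chr9:44144033-44144092, plus strand: ctgtctggactgagcctctggcttctgaac

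H2afx had levels of 8.43 and 8.56 in mutant islets, against 8.82 and 9.33 in control islets. Both mutant samples were below both controls, and the controls differed from each other by 0.50. The ratios were -0.40 and -0.77, a mean of -0.58 ± 0.26 (SD, n = 2) or 0.668-fold, with a 95% interval of -0.96 to -0.21, an unadjusted p of 0.009 and a limma adjusted p of 0.252. The difference therefore did not pass the threshold over all tested probes, although it was the only member whose mutant levels were both below the control levels. In the authors' deposited table the log2 ratios were -0.58 and -0.91, with within-array p-values of 0.00682 and 4.13e-05. Relative to the array medians under median centring the ratios were -0.29 and -0.55, while the mean without that allowance was 0.20, so the sign of H2afx in absolute terms rested on the normalization.

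MacroH2A proteins carry a large macrodomain beyond the histone fold and are found on silent chromatin, including the inactive X chromosome. H2afy makes macroH2A1.1 and macroH2A1.2 by alternative splicing. All 3 H2afy probes are printed whole, since the second is listed for transcript variants 3 and 4 only and the others for all 4 listed variants. Which of the splice forms those variants encode was not matched here.
H2afy, probe A_55_P2058359, mm9 chr13:56205682-56205741, minus strand: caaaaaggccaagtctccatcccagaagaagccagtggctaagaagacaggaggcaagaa
H2afy, probe A_52_P179238, mm9 chr13:56189613-56189672, minus strand: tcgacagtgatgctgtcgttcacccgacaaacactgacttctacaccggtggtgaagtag
H2afy, probe A_52_P141583, mm9 chr13:56184528-56184587, minus strand: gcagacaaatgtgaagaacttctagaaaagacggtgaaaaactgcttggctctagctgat

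The variant-limited probe, at base 857, had levels of 7.11 and 7.04 in mutant islets, against 6.66 and 6.94 in control islets. Both mutant samples were above both controls. Ratios of 0.46 and 0.10 averaged 0.28 ± 0.25 (SD, n = 2; limma adjusted p = 0.570). The authors' deposited table gave this probe within-array p-values of 0.00767 and 0.805. At the probes for all listed variants the arrays disagreed in sign. The probe at base 636 had 8.18 and 7.77 in mutant islets and 7.87 and 8.02 in control islets (mean ratio 0.03 ± 0.40, SD, n = 2; limma adjusted p = 0.973). The probe at base 1084 had 9.21 and 9.24 in mutant islets and 9.02 and 9.42 in control islets (mean ratio 0.00 ± 0.27, SD, n = 2; limma adjusted p = 0.995). All 3 H2afy probes were higher in the mutant on the replicate 1 array, and 1 of 3 on the replicate 2 array. No test of the difference between the variant-limited probe and the others was made.

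H2afy2 encodes macroH2A2, and its probe A_66_P125560, at base 1750 (mm9 chr10:61201395-61201428, minus strand, with 34 bases placed), had 9.44 and 9.17 in mutant islets, against 9.43 and 9.51 in control islets. The replicate 2 mutant sample was the lowest of the 4, and the other 3 lay close together. Ratios of 0.02 and -0.34 averaged -0.16 ± 0.25 (SD, n = 2; limma adjusted p = 0.758).

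H1f0 encodes H1.0, the linker histone that builds up in cells that have stopped dividing and differentiated. Probe A_52_P550932, at base 1288 (mm9 chr15:78859930-78859989, plus strand), was well above background in both mutant samples and in neither control sample. Its levels were 6.86 and 6.64 in mutant islets, against 6.56 and 6.47 in control islets, with mean raw signals of 112 and 135 in the mutant and 39.0 and 42.5 in the control. The groups did not overlap. As neither control sample was well above background, the probe passed the filter through the mutant channel alone. The means put the mutant 1.18-fold higher, but the 95% interval of the fold, 0.937 to 1.48, included no difference (limma adjusted p = 0.586). With ratios of 0.31 and 0.17, the mean was 0.24 ± 0.099 (SD, n = 2). With the software's processed signals the mean was 1.10, and in the authors' deposited table the within-array p-values were 0.000737 and 0.0487. With median centring and the tested probes centred at 0 the mean was -0.17, so H1f0 had no settled sign.

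**Figure D3:**
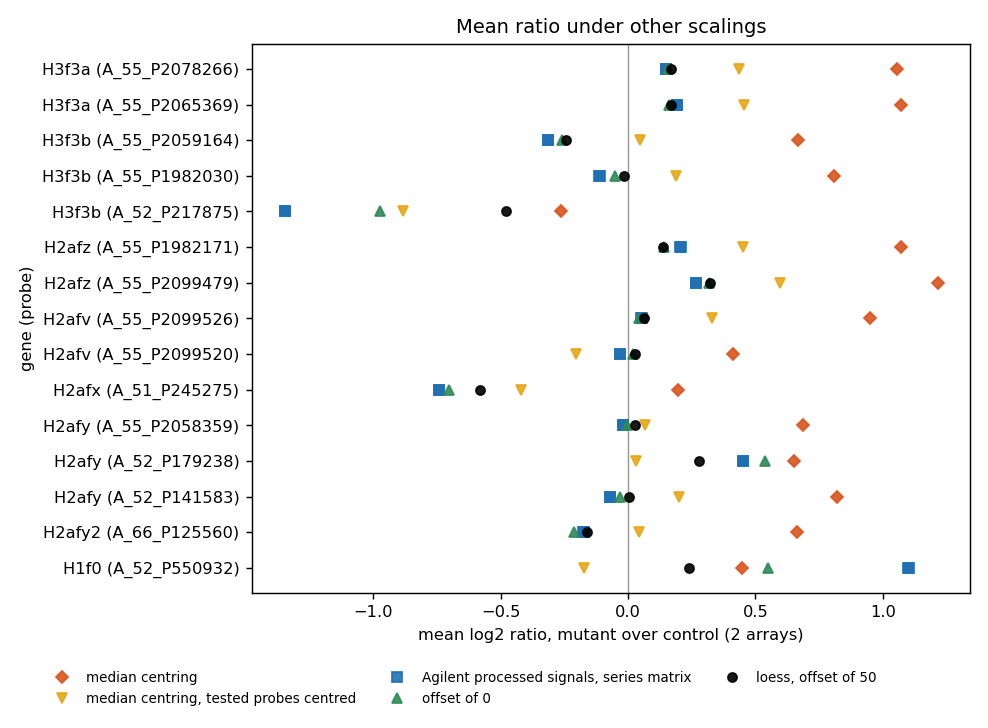
Mean log2 ratio of mutant over control (horizontal axis) at each of the 15 probes (rows) under loess with an offset of 50 and under other ways of scaling the same 2 arrays. Median centring alone moves every probe to the right, both H2afz and both H3f3a probes stay right of 0 under all of them, and the H3f3b probe A_52_P217875 stays left of 0; the H1f0 probe lies on either side.

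The replication-dependent histone genes were set beside the variants. The list was taken by name alone, and 55 gene probes carried names from Hist1h to Hist4h. Of these, 42 probes of 38 genes were tested, and none passed the threshold. Whether these probes read mRNAs with or without a poly(A) tail was not tested. By the brightest probe of each of the 38 genes, 3 were called lower with no filter on dim probes (all probes 32 of 55673). With median centring and the tested probes centred 2 were called lower (background 0.885%). With median centring alone 2 were called higher (background 29.9%). Of the variant probes, 3 of 15 were lower in the mutant on both arrays, and 6 were higher. Of the replication-dependent probes 32 of 42 were lower on both, with 1 higher on both and 9 of opposite sign. Among all tested probes 25.3% were lower and 32.3% higher on both arrays. Median log2 ratios were 0.07 and 0.08 for the variant probes and -0.24 and -0.43 for the replication-dependent probes. Under median centring, relative to the array medians, they were 0.18 and 0.06 for the variants, against -0.14 and -0.28 for the replication-dependent genes. No test of the difference between the lists was made.

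Among the replication-dependent genes, taken by the brightest probe of each, the 2 lowest were Hist1h2bc, with ratios of -0.78 and -0.81 (limma adjusted p = 0.095), and Hist2h2aa1, with -0.88 and -0.69 (limma adjusted p = 0.111), which encode core histones H2B and H2A. A dimmer probe of Hist1h4i, A_51_P505521, was lower still, at -0.97 and -0.65 (limma adjusted p = 0.122), and is named after its values were seen. The 2 highest were Hist3h2ba, with 0.37 and -0.04, and Hist1h3c, with 0.21 and 0.05. H2afx, at -0.40 and -0.77, lay within the range of these genes. Many of them are near-identical copies, so signals of 1 gene cannot be cleanly told from those of its neighbours in sequence, and their probes are not independent.

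**Figure D4:**
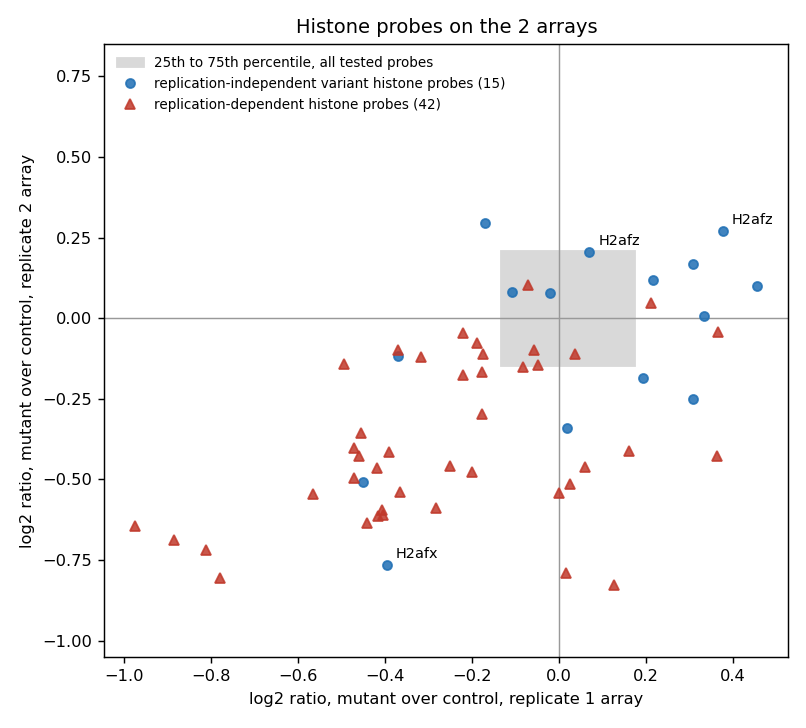
Log2 ratio of mutant over control on the replicate 1 array (horizontal axis) and the replicate 2 array (vertical axis), after loess, for the 15 variant histone probes (circles) and the 42 tested replication-dependent histone probes (triangles); the grey box spans the 25th to 75th percentile of all tested probes. Of the triangles 32 lie below 0 on both arrays, where 3 of the circles also lie.

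The chaperones that place the variants were read from the same fit, each gene by its brightest tested probe, with 0.45% of 17112 tested genes called, 33.1% higher and 25.1% lower on both arrays. H3.3 is deposited by HIRA and its partners at active genes and by DAXX with ATRX at repeats. Of 6 tested genes of this list none was called, 1 was higher and 2 were lower on both arrays, and the medians were -0.05 and -0.05, beside 0.02 and 0.03 for all tested genes. Hira, the core of the complex, had ratios of -0.19 and -0.13, and its partner Ubn2 had -0.22 and -0.18. Daxx had 0.03 and 0.02, and Cabin1, another HIRA partner, had -0.06 and 0.13.

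Genes for H2A.Z exchange, in the SRCAP and EP400 complexes that insert it and in those that remove it, were 17 tested, with none called, 4 higher and 4 lower on both arrays and medians of -0.03 and 0.02. Their highest members were Actl6a, an actin-related subunit, at 0.14 and 0.16, and Yeats4, a histone reader subunit, at 0.16 and 0.10. Their lowest were Brd8, a bromodomain subunit, at -0.06 and -0.37, and Mrgbp at -0.27 and -0.06. A second tested Brd8 probe had a mean of 0.04. Kinases, phosphatases and readers that act on H2A.X were 13 tested, with none called, 7 higher and 1 lower on both arrays and medians of 0.07 and 0.19. Eya1, a tyrosine phosphatase of H2A.X, had 0.30 and 0.64 (limma adjusted p = 0.324) and Eya2 had -0.07 and 0.74, while Eya3 had -0.18 and -0.23 and Baz1b, the kinase of the same tyrosine, had 0.09 and -0.19. Chaperones of H2A-H2B, with the FACT complex, were 7 tested, with none called, 3 higher and 1 lower on both arrays. Npm1 had 0.44 and 0.10 and Nap1l1 had 0.11 and 0.19, while Ssrp1, of FACT, had -0.13 and 0.04 and Set had 0.21 and -0.32. Other tested probes had means of 0.27, 0.10 and 0.01 for Npm1 and of 0.14 and 0.27 for Nap1l1. They had 0.06 for Ssrp1 and 0.01 and 0.14 for Set.

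The single call among the chaperones lay with those of the S-phase histones. Of 7 tested genes for H3-H4 chaperones 1 rose, 5 were higher and 1 was lower on both arrays, and the medians were 0.19 and 0.13. The gene that rose was Mcm2, a subunit of the replicative helicase that also holds parental H3-H4. Mcm2 had levels of 8.71 and 8.96 in mutant islets, against 7.38 and 7.76 in control islets, with both mutant samples above both controls. Its ratios of 1.33 and 1.20 gave a mean of 1.26 ± 0.095 (SD, n = 2), a 2.40-fold difference with a limma adjusted p of 0.043. That call was lost under 6 of the other settings tried, under which no probe of the array passed. Chaf1a, the large subunit of the chromatin assembly factor CAF-1, had 0.39 and 0.72 (limma adjusted p = 0.259), while Rbbp4, another CAF-1 subunit, had -0.08 and -0.01 and Cdan1, whose protein binds the chaperone Asf1, had -0.23 and 0.11.

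Proliferation markers were also read, since Rb acts on the cell cycle. Of 11 tested, 7 were higher and 3 lower on both arrays, 4 rose, Mcm2 among them, and none fell. Among all tested genes 33.1% were higher and 25.1% lower on both arrays, and 0.45% were called. The summed levels of the markers were 12.31 and 12.89 in mutant islets, against 11.44 and 12.16 in control islets. The genes that rose were Mcm2, Mcm4, Mcm5 and Mcm6, all subunits of 1 helicase. All 4 calls were lost under 6 of the other settings tried, under which no probe of the array passed. The 7 that were higher on both arrays were the 6 MCM genes of the list and Pcna. By the brightest tested probe of each, Mki67, Ccnb1 and Birc5 were lower on both arrays, none past the threshold, and Top2a had opposite signs. Pcna, the replication clamp, had ratios of 0.39 and 0.42 (limma adjusted p = 0.336), and Mki67, a marker of cycling cells, had -0.28 and -0.22 (limma adjusted p = 0.556). A second tested Mki67 probe had a mean of 0.01. The part of proliferating cells in the ratios of the variant genes was not tested.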

How the data were processed

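Each array held RNA of 1 mutant (Cy5) and 1 control (Cy3) islet sample. The submitters' processing notes name Agilent Feature Extraction 10.7.3.1 as the software. The deposited intensity values are, per the file headers, each spot's mean signal and median local background in either channel, with processed signals corrected for background and dye by the software. Log10 ratios of red over green, and a p-value for each that covers error inside 1 array, were deposited as well, per the file headers. The series matrix repeats those log10 ratios (largest difference 0), with column medians of 0 and 0.

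Signals were corrected by normexp (offset 50), which understates the ratios of dim probes, and ratios were normalized by loess (span 0.3) in limma 3.58.1 and R 4.3.3. Control spots and 4 non-uniform gene spots per array were left out. No gene spot was saturated (0 found). The 2 ratios of each probe were tested against 0 with lmFit and eBayes (1 residual degree of freedom, 4.90 prior degrees of freedom), two-sided, with Benjamini-Hochberg adjustment over 22266 probes and a threshold of 0.05, and the steps were tested on simulated data. The number of arrays, 2, limits the precision. Both arrays came from 1 slide.

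Gene spots well above background were 41.0% and 48.2% in the mutant channels and 37.0% and 38.1% in the control channels. All members were named, with, from each chaperone list and the replication-dependent histones, every gene past the threshold and the 2 highest and 2 lowest, and a fixed set of markers. The members and lists were chosen with earlier results of these data known, so their counts are descriptions. Alternatives changed the background correction, offset, normalization, value source, prior, filter, pairing within the array, acinar probes and replicates. Promoters are RefSeq's (GRCm38.p6), and 7 of 8 members matched by symbol. No mm9 annotation was used, so exons and untranslated regions are not stated.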

Additional observations from a re-analysis of the deposited data

How the results depend on the processing

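Over all 22266 tested probes 85 were called (82 higher, 3 lower in the mutant). The count was 0 with the software's processed signals (2351 at an unadjusted p under 0.05), an offset of 0 (2471), the series matrix (2355), a trended and robust prior (2143), and the channels as separate samples with no replicate block (1497) or with the array as replicate block (2244), so pairing by a replicate block changed no member's call. It was 355 (323 higher, 32 lower) with no filter, 6735 (6664 higher, 71 lower) with median centring, and 782 (585 higher, 197 lower) when the tested probes were then centred at 0, a setting added after the data were seen. Filtering on both channels gave 76 and leaving out acinar and Reg probes gave 119. Called variant probes numbered 0 under all of these except median centring (7, all higher) and the setting with tested probes centred (1, H3f3b A_52_P217875, at -0.88 with limma's adjusted p of 0.035). The median ratio of the 8 genes, 0.03, was -0.0089 with processed signals, -0.0083 with the series matrix, 0.74 with median centring and 0.12 with the tested probes centred. Without replicate 1 or without replicate 2 it was -0.00012 or 0.044, and single arrays gave no test.

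Signs turned as follows. With processed signals H2afv A_55_P2099520 was at -0.033, H2afy A_55_P2058359 at -0.021 and H2afy A_52_P141583 at -0.072, and with the series matrix the same probes were at -0.032, -0.022 and -0.069. With an offset of 0, H2afy A_55_P2058359 was at -0.0026 and H2afy A_52_P141583 at -0.031. With median centring H3f3b A_55_P2059164 was at 0.67, H3f3b A_55_P1982030 at 0.81, H2afx at 0.20 and H2afy2 at 0.66. With the tested probes centred these H3f3b probes were at 0.047 and 0.19, H2afv A_55_P2099520 at -0.21, H2afy2 at 0.044 and H1f0 at -0.17. The cause of these changes was not tested. Under every setting but median centring alone, single arrays included, H2afx lay between -0.77 and -0.40 (limma's adjusted p 0.139 to 0.740 where tested) and H2afz A_55_P2099479 between 0.27 and 0.60. Dim probes had signals near background, which limits H1f0 and H3f3b A_52_P217875 most: their means with processed signals were 1.10 and -1.35.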

Other observations

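Some probes close to the H3.3 genes carry other names and so were not members. They were picked after their values were seen. Gm2099 had levels of 11.84 and 11.98 in mutant islets, against 11.41 and 11.64 in control islets, with ratios of 0.43 and 0.34 (limma adjusted p = 0.369). The 2 probes of Gm12657 had ratios of 0.38 and 0.25 (limma adjusted p = 0.460), and of 0.39 and 0.16 (limma adjusted p = 0.537). After loess all 3 probes were higher in the mutant on both arrays, as were both H3f3a probes, and none passed the threshold. The H3f3a probe A_55_P2078266 shares a run of 20 bases with the Gm2099 probe and of 22 bases with a probe that has no gene symbol, whose ratios were 0.46 and 0.06 (limma adjusted p = 0.614). Signal shared between these probes was not tested.

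H2afj, an H2A gene expressed outside S phase that was not among the 8, had probes that disagreed. Its bright probe had 12.60 and 13.00 in mutant islets, against 13.05 and 13.34 in control islets, with ratios of -0.45 and -0.35 (limma adjusted p = 0.350). Its dim probe had 7.41 and 7.71 in mutant islets, against 6.92 and 6.57 in control islets, with ratios of 0.49 and 1.14 (limma adjusted p = 0.196). Hjurp, the chaperone of the centromeric H3 variant, had ratios of 0.78 and 0.36 at its brightest probe, with neither control sample well above background (limma adjusted p = 0.273).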
